A study of Homo sapiens with 6 samples.

Results

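The study measured RNA in U87 cells, an established human glioblastoma line, with and without silencing of Caspase-8. Here 10 genes for matrix glycoproteins, matricellular proteins and lysyl oxidases were followed, chosen by name: FN1, SPARC, THBS1, THBS2, TNC, POSTN, FBN1, LOX, LOXL2 and BGN, out of the 23290 genes in the deposited table. The choice used no measured value as a rule, but it was made with earlier results of these data known. The control group (shCTR, 3 libraries) was infected with a retroviral scramble vector, and the other group (shC8, 3 libraries) with a retroviral vector against Caspase-8, the initiator protease of death receptor signalling. All cultures were of this 1 line, grown in DMEM with 10% serum, and all had been infected with a retrovirus. The submitters describe the libraries of a group as biological replicates without telling how separate the infections were, so p-values measure only the spread between these libraries, which may be technical.

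The extracellular matrix is the protein network that cells secrete around themselves. Fibronectin and fibrillin form its fibres, lysyl oxidases crosslink its collagen and elastin, and matricellular proteins such as thrombospondins, tenascin-C, SPARC and periostin change how cells adhere to it and respond to growth factors. In glioblastoma, tenascin-C and fibronectin are known around vessels, and SPARC is known for its link to invasion. Thrombospondins 1 and 2 are best known as inhibitors of vessel growth.

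Values are FPKM, fragments scaled by transcript length and by the fragments mapped in the library, so levels can be compared between genes. CASP8, the silenced gene, lay between 13.4 and 15.1 FPKM in shCTR and between 4.39 and 4.46 in shC8, a log2 change of -1.51. Absolute depth is unknown. Relative depth was read as the most common ratio to shCTR 1 among genes under 0.05 FPKM in both libraries. Only ratios within a set window around 1 were counted. By this the other libraries were 1.08 to 1.21 times as deep as shCTR 1. Of 7 glioma and astrocyte markers, SLC1A3 and NES averaged at least 1 FPKM, and SLC1A3 fell (8.97 to 11.9 FPKM in shCTR, 4.68 to 6.19 in shC8) while NES rose (5.8 to 8.0 against 9.3 to 12.2). GFAP stayed at or under 0.297 FPKM, S100B at or under 0.0622, and AQP4 was listed at 0 in every library, so the defining astrocyte markers were near absent from these cells. Each of the 7 mesenchymal markers averaged at least 1 FPKM, with VIM between 3640 and 4710. Of these, PDGFRB, THY1 and S100A4 rose (S100A4 was 0.883 to 1.57 FPKM in shCTR and 3.93 to 5.27 in shC8), CD44 fell (363 to 370 against 253 to 293), and their summed FPKM was 4190 to 5100 in shCTR and 3920 to 4190 in shC8. Of 6 leukocyte markers, 2 averaged at least 1 FPKM, CD68 (135 to 157) and CSF1R (0.908 to 1.56), while PTPRC reached at most 0.117. Of 5 endothelial markers, 1 averaged at least 1 FPKM, KDR (0.758 to 1.96), while TEK was at 0.682 to 0.97 and CDH5 at most 0.039. No leukocyte or endothelial marker passed the test described below. Summed FPKM of 7 fibroblast and pericyte markers ranged from 85.5 to 138 in shCTR and from 195 to 356 in shC8, and without COL1A2 from 24.7 to 31.1 and from 23.5 to 36.1, which overlap. Of these 7, COL1A2 rose, the other 3 tested did not pass, and PDGFRA, DES and DCN averaged under 1 FPKM. The part of these markers in the results below was not tested. In bulk RNA, a larger share of cells that make a transcript and more transcript per cell cannot be told apart.

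Of the 8 genes that could be tested, 6 had a higher mean in shC8. SPARC and TNC rose, THBS2 fell, and FN1, THBS1, FBN1, LOX and LOXL2 did not pass the test. POSTN and BGN were close to 0 in every library and were not tested. Changes are on the log2(FPKM + 1) scale, shC8 minus shCTR, which understates the change of low genes. The test was limma's moderated test over the 11598 genes that averaged at least 1 FPKM, with Benjamini-Hochberg adjustment and a threshold of 0.05. Thus 2 of 8 tested genes rose, where 7.14% of all tested genes rose, and 1 fell, where 4.94% of all fell. Of all calls 59.1% were higher, against 49.4% with quantile normalization and 46.2% with median-of-ratios scaling. The median change of the 8 was 0.56, and that of all tested genes was 0.04. The groups did not overlap for 4 of the 8 (SPARC, TNC, THBS2 and LOXL2), against 34.8% of all tested genes.

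Libraries of the 2 groups that carry the same replicate number resembled each other. This pairing was read from these same data, since no label says what a number shares. With the replicate number as a block in the limma fit, 6 of the 8 genes rose, 1 fell and FN1 did not pass. Of all tested genes, 16.1% rose and 10.6% fell in that fit. The calls without the block did not hold in every fit with 1 library left out. None of the 8 passed limma's adjusted threshold without shCTR 1, without shCTR 2, without shC8 2 or without shC8 3, although 4 had an unadjusted p under 0.05 in each of these fits, while 2 (SPARC and TNC) passed without shCTR 3 and 5 passed without shC8 1. The changes in these 6 fits kept their direction, from 0.68 to 1.05 for SPARC, 0.37 to 0.51 for TNC and -0.90 to -0.55 for THBS2. Without the filter on low values SPARC and THBS2 did not pass (limma adjusted p = 0.0811 and 0.103).

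**Figure D1:**
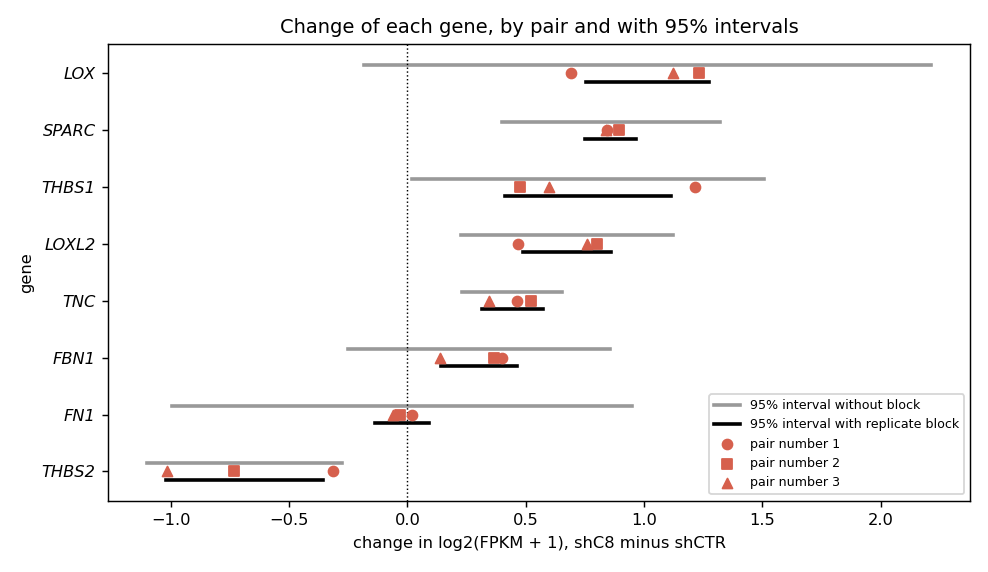
Change of the 8 tested genes (x axis, log2(FPKM + 1), shC8 minus shCTR), with red symbols for the 3 pairs of same-numbered libraries and bars for the 95% intervals from limma without (grey) and with (black) the replicate block. Red symbols of SPARC lie between 0.84 and 0.90 and those of THBS2 between -1.02 and -0.32, while the interval of FN1 spans 0 in both fits.

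FN1 encodes fibronectin, the adhesive glycoprotein that integrins assemble into fibrils (ENSG00000115414, minus strand of chromosome 2, 215360440 to 215436172, GRCh38). It had the highest mean of the 10, 275 FPKM over the 6 libraries. Its FPKM was 156, 416 and 260 across shCTR 1 to 3, against 158, 408 and 250 across shC8 1 to 3. The groups overlapped almost entirely, and the libraries differed by number: number 1 was low, number 2 high and number 3 between them in both groups. The highest shCTR library was 2.66 times the lowest, and the highest shC8 library 2.57 times the lowest. The ratio of shC8 to shCTR within a number was 1.01, 0.980 and 0.959. The change was -0.02 (SE 0.416, limma adjusted p = 0.979), with a 95% interval from -0.99 to 0.95. With the replicate block the interval was -0.14 to 0.09 (limma adjusted p = 0.741), so a change of FN1 beyond those bounds lay outside that fit's interval.

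SPARC, also called osteonectin, encodes a calcium-binding matricellular protein that binds collagen (ENSG00000113140, minus strand of chromosome 5, 151661096 to 151687165). It was at 98.5, 139 and 148 FPKM across shCTR 1 to 3, against 177, 259 and 265 across shC8 1 to 3. Every shC8 library exceeded every shCTR library, and number 1 was the lowest of each group. Group means were 128 ± 26.2 and 234 ± 48.9 FPKM (SD, n = 3 each), 1.82 times the control level. The change was 0.86 (SE 0.197, limma adjusted p = 0.0337), and 0.84, 0.90 and 0.84 within the 3 numbers. SPARC did not pass when shCTR 1, shCTR 2, shC8 2 or shC8 3 was left out (limma adjusted p up to 0.108).

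TNC encodes tenascin-C, a large matricellular protein of tumour stroma and developing brain (ENSG00000041982, minus strand of chromosome 9, 115019578 to 115118257). Its FPKM was 89.2, 99.6 and 108 across shCTR 1 to 3, against 123, 143 and 137 across shC8 1 to 3. The groups were separate, and the libraries within each were close together. Group means were 98.8 ± 9.22 and 135 ± 10.1 FPKM (SD, n = 3 each), 1.36 times the control level. The change was 0.44 (SE 0.0907, limma adjusted p = 0.0235). TNC lost its call without the same libraries as SPARC (limma adjusted p up to 0.084).

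**Figure D2:**
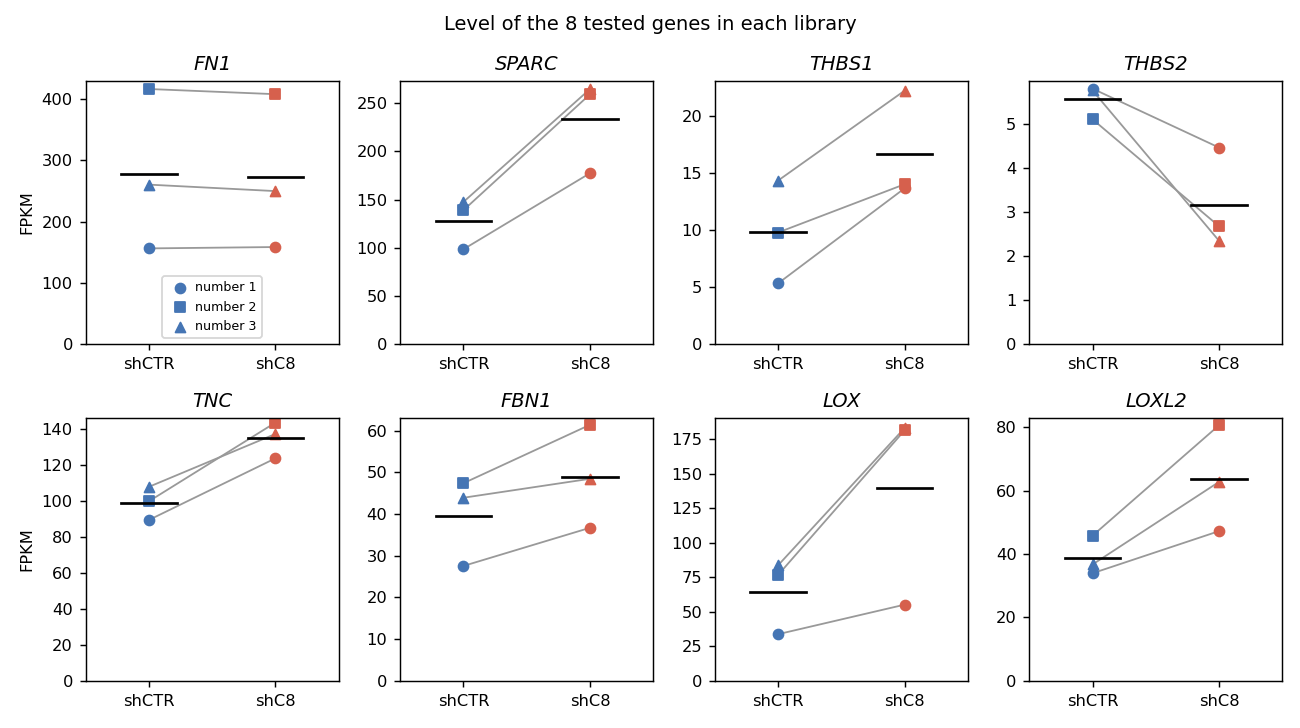
FPKM (y axes, from 0) of the 8 tested genes in each library, with shCTR on the left and shC8 on the right of each panel. Symbols mark the replicate number, grey lines join libraries of the same number, and black bars are group means. Lines of FN1 are nearly flat from 156 to 158, 416 to 408 and 260 to 250 FPKM, while each line of SPARC, TNC, LOX, LOXL2, THBS1 and FBN1 goes up and each line of THBS2 goes down.

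THBS1 and THBS2 encode trimeric thrombospondins of the same subgroup, which bind the receptors CD47 and CD36. THBS1 (ENSG00000137801, plus strand of chromosome 15, 39581079 to 39599466) was at 5.33, 9.80 and 14.4 FPKM across shCTR 1 to 3, against 13.7, 14.0 and 22.3 across shC8 1 to 3. The groups overlapped, since shCTR 3 stood above shC8 1 and 2, but within each number shC8 was the higher. The change was 0.76 (SE 0.319, limma adjusted p = 0.158), and THBS1 passed once the number was a block (limma adjusted p = 0.0151).

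THBS2 (ENSG00000186340, minus strand of chromosome 6, 169215780 to 169254044) was lower in every shC8 library. It stood at 5.81, 5.11 and 5.76 FPKM across shCTR 1 to 3, against 4.47, 2.68 and 2.35 across shC8 1 to 3. The shCTR values were close together, and shC8 1 was nearer to them than shC8 2 or 3. Group means were 5.56 ± 0.391 and 3.16 ± 1.14 FPKM (SD, n = 3 each), 1.76-fold lower in shC8. The change was -0.69 (SE 0.176, limma adjusted p = 0.0459), and -0.32, -0.73 and -1.02 within numbers 1, 2 and 3. Without any 1 library other than shC8 1, THBS2 did not pass (limma adjusted p up to 0.13).

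A ratio of these genes within a library does not move with the scaling of that library. The THBS2 to THBS1 ratio was 1.09, 0.521 and 0.401 across shCTR 1 to 3, against 0.326, 0.191 and 0.105 across shC8 1 to 3. Every shC8 library was thus below every shCTR library, and the shCTR libraries themselves spread widely. The SPARC to FN1 ratio was 0.631, 0.334 and 0.567 in shCTR and 1.12, 0.636 and 1.06 in shC8, so the groups did not overlap, with shC8 2 just above shCTR 1. For TNC to FN1 it was 0.571, 0.239 and 0.414 in shCTR and 0.779, 0.352 and 0.549 in shC8, so these groups overlapped while shC8 was higher within each number. The LOX to FN1 ratio was 0.217, 0.184 and 0.322 in shCTR and 0.349, 0.445 and 0.734 in shC8, without overlap. These ratios to FN1 were not among those planned. How often the groups separate over all gene pairs was not computed. No test was made of the ratios.

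FBN1 encodes fibrillin-1, the backbone of microfibrils, which hold latent TGF-beta complexes (ENSG00000166147, minus strand of chromosome 15, 48408306 to 48645849). It was at 27.6, 47.4 and 43.9 FPKM across shCTR 1 to 3, against 36.7, 61.4 and 48.5 across shC8 1 to 3. The groups overlapped, with number 1 the lowest in both. The change was 0.30 (SE 0.237, limma adjusted p = 0.431), with a 95% interval from -0.25 to 0.86, and the replicate block brought the limma adjusted p to 0.0227.

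POSTN, the gene of periostin, and BGN, the gene of the small proteoglycan biglycan, did not reach the mean of 1 FPKM. POSTN was listed at 0.0153 FPKM in shCTR 1, at 0 in the other shCTR libraries, and at 0.00742, 0.0143 and 0.0339 across shC8 1 to 3. BGN was listed at 0 in every shCTR library and in shC8 1, while shC8 2 and 3 held 0.0327 and 0.0317 FPKM. HAUS7, which overlaps BGN on the opposite strand, was between 4.87 and 6.12 FPKM in the same libraries. No fold is given for POSTN or BGN.

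Upstream sequences were read for 9 of the 10 genes from RefSeq (build GRCh38.p14), 250 bases before the start site, and LOXL2 was not included. Stretches with motif letters are shown for some of these genes, of which SPARC, TNC and THBS2 passed the test and FN1, THBS1 and LOX did not. They are written 5′ to 3′ on the gene's strand. Capitals mark, on either strand, TGACGTCA (cyclic AMP response element) and CCAAT in FN1, GGAGGAGG (a purine repeat) in SPARC and GGAATG (TEAD element) with CCAAT in THBS1. They also mark GGAATG with TATAAA in THBS2, TATATAA in TNC and ACGTG (hypoxia response core) in LOX. Matches to ACGTG in THBS2 and to GGAGGAGG and CCAAT in LOX were left in small letters. Untranslated exons of GENCODE 29, sought by position without regard to gene or strand, cover all of the SPARC and TNC stretches. They also cover 30 bases of the THBS2 stretch, 12 of that of LOX and all 30 bases around the TATATAA of POSTN (not shown). FBN1 reaches 48645849 in GENCODE 29, beyond its RefSeq start at 48644970, so its window lay inside the annotated gene. For LOX the table holds 3 starts and the outermost was used.
FN1, chr2:215436218-215436268, minus strand: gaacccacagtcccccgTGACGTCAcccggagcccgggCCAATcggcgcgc
SPARC, chr5:151687005-151687030, minus strand: ggaggagacaGGAGGAGGAGGgacca
THBS1, chr15:39580999-39581059, plus strand: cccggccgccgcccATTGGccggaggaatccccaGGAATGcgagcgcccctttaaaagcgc
THBS2, chr6:169253867-169253961, minus strand: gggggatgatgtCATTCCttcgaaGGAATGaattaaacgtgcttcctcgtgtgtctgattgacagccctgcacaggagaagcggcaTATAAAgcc
TNC, chr9:115118173-115118202, minus strand: agaggaaggagctcgcTATATAAgccagcc
LOX, chr5:122078349-122078449, minus strand: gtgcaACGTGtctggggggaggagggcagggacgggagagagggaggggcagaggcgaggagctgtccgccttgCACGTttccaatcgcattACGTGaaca

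The 2 thrombospondin promoters were unlike in these letters. THBS2 had GGAATG at 2 positions, 103 and 91 bases upstream and on opposite strands, and TATAAA 29 bases upstream, while THBS1 had GGAATG once, 46 bases upstream, and no TATAAA in this window. GGAATG was found in 4 of the 9 windows (THBS1, THBS2, SPARC and FBN1) and in 11.9% of the 35116 windows of the table. TNC and POSTN had TATATAA, present in 2.42% of all windows, with its first base 29 and 31 bases upstream, and POSTN also had TATAAA, once overlapping it and once 182 bases upstream (TATAAA was in 10.7% of all windows). FN1 alone of the 9 had TGACGTCA (1.65% of all windows), 183 bases upstream. LOX had 4 of the 5 matches to ACGTG, the other being in THBS2 (18.5% of all windows). GGAGGAGG was found in SPARC, THBS2 and LOX (9.45% of all windows) and CCAAT in FN1, LOX and THBS1 (32% of all windows). TGACTCA, the AP-1 element (4.2% of all windows), was found in POSTN. Letters of the NF-kB consensus, searched because the study's title concerns NF-kB, were found in 9.96% of all windows and in 0 of these 9, and those of the serum response consensus in 1.16% and in 0. A match is a description of letters and not a binding site, and these windows show nothing of elements farther away.

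**Figure D3:**
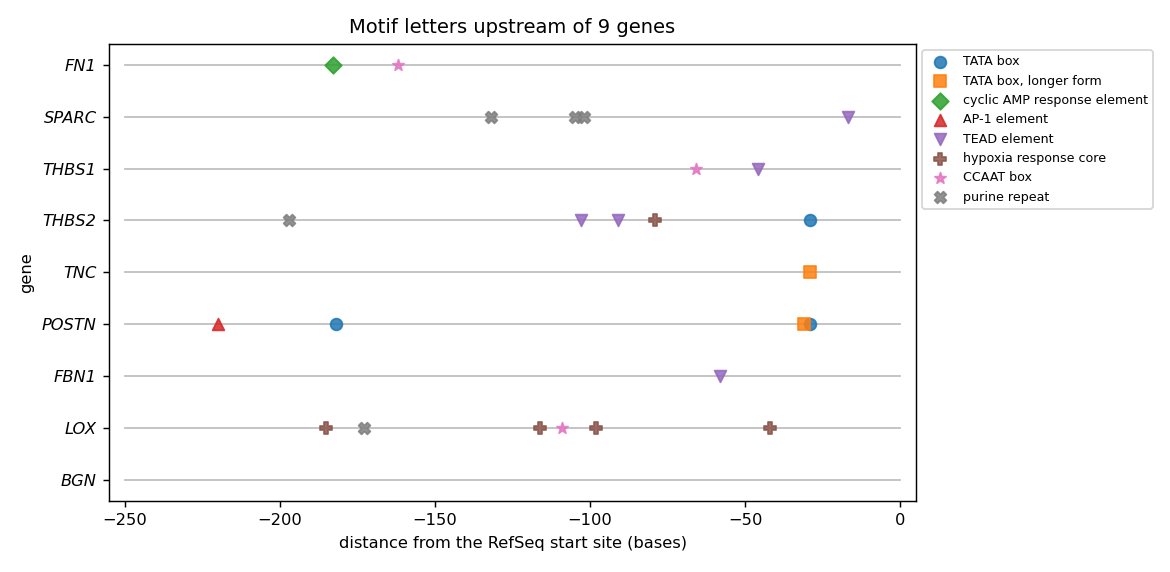
Position of each motif match (x axis, first base in bases from the RefSeq start site, 250 bases upstream to 0) for 9 genes, with a symbol for each motif. LOX carries 4 matches to the hypoxia response core, THBS2 a pair of TEAD element matches, and BGN none of the motifs searched.

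LOX and LOXL2 encode copper-dependent amine oxidases that crosslink collagen and elastin. LOX (ENSG00000113083, minus strand of chromosome 5, 122063195 to 122078360) had the widest spread of the 8 among shC8 libraries, with a coefficient of variation of 52.4%. Its FPKM was 33.8, 76.7 and 83.7 across shCTR 1 to 3, against 55.2, 182 and 183 across shC8 1 to 3. The groups overlapped because shC8 1 lay below shCTR 2 and 3, and shC8 was higher within each number, by ratios of 1.63, 2.37 and 2.19. Group means were 64.7 ± 27.0 and 140 ± 73.4 FPKM (SD, n = 3 each), and the change was 1.02 (SE 0.514, limma adjusted p = 0.232). LOX passed with the replicate block (limma adjusted p = 0.00297), and without shC8 1 the change was 1.58 (limma adjusted p = 0.0432). SRFBP1, which overlaps LOX on the other strand, stayed between 18.3 and 19.6 FPKM in all 6 libraries.

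LOXL2 (ENSG00000134013, minus strand of chromosome 8, 23297189 to 23425328) was at 33.9, 45.8 and 36.7 FPKM across shCTR 1 to 3, against 47.2, 80.6 and 62.7 across shC8 1 to 3. The groups did not overlap, but shCTR 2 was just below shC8 1. The change was 0.68 (SE 0.192, limma adjusted p = 0.0608), which did not pass, with a 95% interval from 0.23 to 1.12. It passed with the replicate block (limma adjusted p = 0.00367). The annotation places ENTPD4 (27.4, 30.4 and 29.5 FPKM across shCTR 1 to 3, 22.9, 24.2 and 24.8 across shC8 1 to 3) over part of LOXL2 on the same strand. Of the other lysyl oxidases, LOXL1 changed by 0.53 (limma adjusted p = 0.23, and 0.0132 with the replicate block), LOXL3 by 0.06 (limma adjusted p = 0.805), and LOXL4 stayed at or under 0.585 FPKM. The LOXL2 to LOX ratio was 1.00, 0.597 and 0.439 across shCTR 1 to 3, against 0.855, 0.444 and 0.343 across shC8 1 to 3. These groups overlapped, and the ratio was lower in shC8 within each number.

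Each deposited column name ends in a number of unstated meaning. These numbers were low for shC8 1 and for shCTR 1 and 3, and high for shCTR 2 and for shC8 2 and 3. Among libraries with low and with high numbers, SPARC changed by 0.55 and 0.91, TNC by 0.33 and 0.49, and THBS2 by -0.31 and -0.80. LOXL2 changed by 0.41 and 0.62, THBS1 by 0.57 and 0.79, and FBN1 by 0.07 and 0.20. For LOX the values were 0.05 and 1.24, and for FN1 they were -0.35 and -0.38. Each range held only 1 library of a group and so compared unlike replicate numbers. Within replicate numbers 1, 2 and 3, LOX changed by 0.69, 1.23 and 1.12, and FN1 by 0.02, -0.03 and -0.06. SPARC, TNC, THBS2 and LOXL2 passed with the range as a term (limma adjusted p between 0.0328 and 0.0371), and LOX did not (0.305).

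Number 1 was the lowest library of both groups for 7 of the 8 tested genes, all but THBS2. This order held for 17% of all tested genes and for 39 of 70 tested genes of related matrix lists (55.7%). The 10 genes together took 0.0901%, 0.168% and 0.142% of all FPKM across shCTR 1 to 3, against 0.119%, 0.235% and 0.197% across shC8 1 to 3. Number 1 was again the lowest of both groups, and shC8 was the higher within each number. FN1 made up 34.7%, 49.6% and 37.2% of that sum in shCTR and 25.7%, 35.4% and 25.7% in shC8. The sources used here do not give culture density, passage or day of harvest, and their part was not tested.

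Among 117 related matrix genes outside the 10, rises outnumbered falls. Of the 70 that were tested, 14 rose (20%), 2 fell (2.86%) and 54 did not pass, with a median change of 0.17, where 7.14% of all tested genes rose and 4.94% fell. With the replicate block 28 rose and 9 fell, where 16.1% and 10.6% of all did. The count of 16 calls was 0 without number 2 in both groups, where 24 had an unadjusted limma p under 0.05, and 1 without number 3. Without MFAP5, which passed the filter only through shC8, 13 of 69 rose (18.8%). Without the filter on low values the calls of FSTL1, WISP1, ITGA5, PCOLCE, P4HA2, LEPRE1, SPP1 and ECM1, described below, did not hold (limma adjusted p between 0.0527 and 0.0832). The lists were chosen with earlier results known.

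Among relatives of the matricellular genes, TGFBI, FSTL1 and WISP1 rose. They were 1 of 1 tested fasciclin-domain gene, 1 of 3 tested SPARC family genes and 1 of 4 tested CCN genes. Over all tested genes 7.14% rose and 4.94% fell, and lists this small cannot be set against those shares. With the replicate block the rises were the same and 2 CCN genes fell, where 16.1% of all rose and 10.6% fell. TGFBI, which shares the fasciclin domains of periostin and was abundant where POSTN was near 0, stood at 428, 531 and 629 FPKM across shCTR 1 to 3, against 924, 1173 and 1208 across shC8 1 to 3. The groups were well apart, and the change was 1.06 (SE 0.162, limma adjusted p = 0.00924). It was called in each of the 6 fits without 1 library. FSTL1, a SPARC-related secreted protein, rose by 1.04 (limma adjusted p = 0.0336), from 35.6, 55.6 and 49.4 to 66.7, 116 and 112 FPKM. SMOC1 and SPOCK1, also of the SPARC family, changed by -0.20 and 0.05 and did not pass. Without any 1 library other than shC8 1, FSTL1 did not pass (limma adjusted p up to 0.107). Of 4 tested CCN genes, WISP1 (now CCN4) rose by 1.05 (limma adjusted p = 0.0345), while CYR61 and CTGF changed by -0.45 and -0.30 and did not pass (limma adjusted p = 0.0779 and 0.378, and 0.00613 and 0.0251 with the replicate block). WISP1 read 0.642, 1.75 and 0.954 FPKM across shCTR 1 to 3, against 2.46, 4.84 and 2.87 across shC8 1 to 3, so the groups were apart at a low level. WISP1 did not pass when shCTR 1, shCTR 3, shC8 2 or shC8 3 was left out (limma adjusted p up to 0.101). Other thrombospondins and tenascins were low: THBS3 changed by 0.15 (limma adjusted p = 0.377), and THBS4, COMP, TNR, TNN and TNXB stayed under 1 FPKM.

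Of 12 tested microfibril and elastic fibre genes, MFAP5 rose and 11 did not pass. This share of 8.33% rests on MFAP5 alone, since none of the other 11 rose or fell. Of all tested genes 7.14% rose and 4.94% fell. In the fit with the replicate block 4 rose, MFAP5 among them, and 2 fell (LTBP1 and LTBP2). These were 33.3% and 16.7%, where 16.1% of all rose and 10.6% fell. MFAP5, which encodes a fibrillin-associated glycoprotein, went from 0.144, 0.348 and 0.631 FPKM in shCTR 1, 2 and 3 to 1.81, 3.92 and 4.04 in shC8 1, 2 and 3, a change of 1.60 (SE 0.244, limma adjusted p = 0.00927). It averaged 0.374 FPKM in shCTR and 3.25 in shC8 and so passed the filter only through shC8. The median of these 12 was 0.04, equal to that of all tested genes at 2 decimals. The small proteoglycan gene LUM changed by 0.33 (limma adjusted p = 0.559), and DCN stayed at or under 0.542 FPKM.

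Of 16 tested genes for the processing and crosslinking of matrix proteins, 5 rose and 1 fell (31.2% and 6.25%, against 7.14% and 4.94% of all tested genes), with a median of 0.29. With the replicate block 8 rose and 1 fell (50% and 6.25%), where 16.1% and 10.6% of all did. BMP1, the protease that trims procollagen and activates LOX, rose from 4.33, 5.28 and 4.79 to 7.28, 8.93 and 8.46 FPKM, by 0.67 (SE 0.0983, limma adjusted p = 0.00832). PCOLCE, an enhancer of BMP1, rose by 0.91 (limma adjusted p = 0.0282), and the collagen chaperone gene SERPINH1 by 0.65 (limma adjusted p = 0.00537). The prolyl hydroxylase genes P4HA2 and LEPRE1 (now P3H1) rose by 0.64 and 0.63. TGM2, which encodes a transglutaminase that crosslinks fibronectin, fell from 75.0, 98.9 and 65.8 to 43.3, 45.3 and 34.0 FPKM, and its change was -0.94 (SE 0.163, limma adjusted p = 0.0138). BMP1, SERPINH1 and TGM2 kept their calls in each of the 6 fits without 1 library, P4HA2 in 3, and PCOLCE and LEPRE1 in 2.

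Among 14 tested receptors of these proteins, 3 rose (21.4%, against 7.14% of all tested genes) and 11 did not pass. Under the replicate block 6 rose and 1 fell, where 16.1% and 10.6% of all did. SDC2, the proteoglycan syndecan-2 that takes part in fibronectin assembly, rose from 19.4, 28.4 and 26.1 to 50.8, 66.3 and 66.0 FPKM, by 1.28 (SE 0.157, limma adjusted p = 0.00465). ITGA5 and ITGAV, which encode alpha subunits of fibronectin-binding integrins, rose by 0.41 and 0.48 (limma adjusted p = 0.0379 and 0.011). ITGB3, a partner of the alpha V subunit, changed by -0.51 (limma adjusted p = 0.127), and with the replicate block its limma adjusted p was 0.0111. CD47, the thrombospondin receptor, changed by 0.25 (limma adjusted p = 0.14, and 0.0131 with the replicate block). ITGA5 did not pass when shCTR 1, shCTR 3, shC8 2 or shC8 3 was left out (limma adjusted p up to 0.108), nor with median-of-ratios scaling (0.0574) or without the filter (0.0747).

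Of 16 other tested matrix glycoproteins, HSPG2 and ECM1 rose, SPP1 fell and 13 did not pass. These shares, 12.5% and 6.25%, were near the 7.14% and 4.94% of all tested genes, and under the replicate block 6 rose and 3 fell, where 16.1% and 10.6% of all did. HSPG2, the gene of the basement membrane proteoglycan perlecan, rose by 0.85 from 1.16, 1.57 and 1.43 to 2.43, 3.87 and 3.69 FPKM (limma adjusted p = 0.015), and ECM1 by 0.35 (limma adjusted p = 0.03). SPP1, which encodes the adhesive phosphoprotein osteopontin, fell by 0.79 on the log2 scale, from 208, 148 and 195 to 134, 92.2 and 92.1 FPKM (limma adjusted p = 0.032). Of the 6 fits without 1 library, HSPG2 kept its call in 3, SPP1 in 2 and ECM1 in 1.

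**Figure D4:**
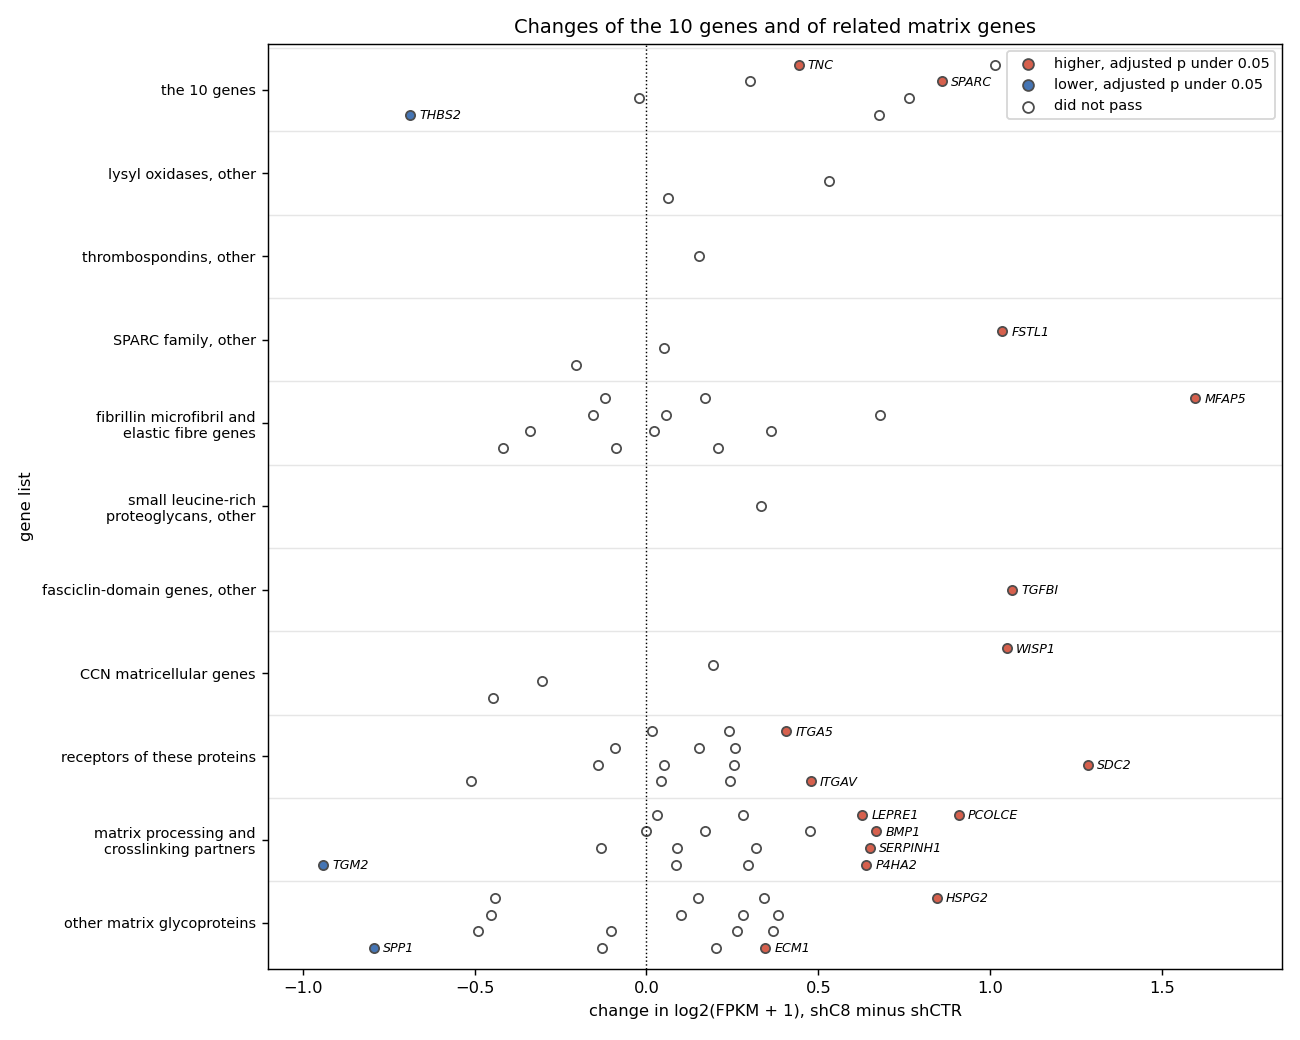
Change in log2(FPKM + 1), shC8 minus shCTR (x axis), of each tested gene among the 10 and in lists of related matrix genes (rows, with vertical spread only to separate points). Filled symbols passed limma's adjusted threshold (red higher, blue lower). Filled red symbols run from ECM1 at 0.35 to MFAP5 at 1.60, or to SDC2 at 1.28 without MFAP5, and TGM2, SPP1 and THBS2 are the blue ones.

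Genes whose log2(FPKM + 1) was most alike over the 6 libraries were sought for SPARC, TNC and THBS2 by Pearson correlation. For SPARC these were SEMA6D, DCBLD1 and PHLPP2 (r = 0.997 each), for TNC they were ZNF512B, ATXN1 and CHPF2 (r = 0.997, 0.995 and 0.994), and for THBS2 they were MINA, RAD18 and NSMCE1 (r = 0.996, 0.995 and 0.995). The 6 points of each r share the 2 groups and the libraries, and r was over 0.95 for 298 genes with SPARC, 338 with TNC and 153 with THBS2.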

How the data were processed

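Per the labels' protocols, libraries from a stranded kit with ribosomal depletion were sequenced from U87 total RNA after DNase. The authors deposited FPKM per gene symbol and library. The submitters' processing notes list hg38, TopHat, Cufflinks and Cuffdiff; versions, annotation, strand setting and scaling are not given in the sources used here. Each FPKM moves with the library total, and values at 0 can be failed estimates. The columns summed to between 489055 and 516634 FPKM. No counts were held, so no count model or counting interval was used.

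Groups came from sample titles. Genes averaging at least 1 FPKM (11598 of 23290) were tested on log2(FPKM + 1) with limma 3.58.1 (R 4.3.3, mean trend, two-sided), with Benjamini-Hochberg adjustment over all of them. An exact permutation test of CASP8 gave p = 0.1, the smallest that 3 against 3 libraries allow. The limma script was tested on simulated data, where it recovered 41% of log2 changes of 0.5 and 89% of those of 1. Of its calls there, 2.26% were false. The simulation changed 100 genes by each size and drew noise independently for each gene and library. It held no structure shared between same-numbered libraries, so these rates do not measure the error of the calls above.

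Deviations from group means correlated at 0.397, 0.266 and 0.291 between same-numbered libraries, across genes. Between unlike numbers the correlations ran from -0.32 to 0.0378. Deviations within a group cancel out, so these correlations are linked. The higher values of same-numbered libraries were taken as pairing. This pairing comes from the data, since no label says what a number shares. Members and lists were chosen with earlier results of these data known. The text names CASP8, the 10 genes, markers, up to 4 passing genes of each list with the largest changes (or those of a direction with 5 or fewer), and the 3 most alike genes of each passing member. ENTPD4, HAUS7, SRFBP1 and genes named beside them that did not pass were added after their values were seen. Gene coordinates are from GENCODE 29 (GRCh38) and upstream sequences from RefSeq (GRCh38.p14). Python 3.11.15 with pandas 2.3.3 and scipy 1.17.1 was used. Alternatives were other pseudocounts, filters and scalings, the replicate block, no trend, the column number range and left-out libraries.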

Additional observations from a re-analysis of the deposited data

How the results depend on the processing

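Of the 8 tested genes, 3 were called, and so they were with a pseudocount of 0.1, quantile normalization, median-of-ratios scaling and moderation without a trend, with 2 at a minimum mean of 5 FPKM, where THBS2 was not tested, and 4 when the fit held a term for low against high column numbers. The count was 1 (TNC) without a filter on low values and 7 with the replicate block, and it ranged from 0 to 5 when 1 library, or 1 number in both groups (an alternative chosen after seeing the data), was left out. Where it was 0, which was also so without number 2 and without number 3, 4 genes had an unadjusted limma p under 0.05. Over all genes 1401 were called, 59.1% of them higher (49.4% with quantile normalization and 46.2% with median-of-ratios scaling), 3086 with the block, 522 to 1376 without 1 library and 46 to 843 without 1 number. For related matrix genes 16 were called, 8 without the filter, 37 with the block, 8 to 16 without 1 library and 0 to 15 without 1 number (0 without number 2, where 24 had an unadjusted limma p under 0.05), where fewer libraries were compared. FN1, never called, ranged from -0.38 to 0.32 without 1 library, above 0 without shCTR 2 (0.32) and without shC8 1 (0.31). The cause of these shifts was not tested. With the block, no call made without it among the 8 was lost. Depth is unknown, and POSTN and BGN lie where a few fragments decide the value.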
